A study of Mus musculus with 8 samples.

Results

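The nuclear receptors described here are 34 named genes of the superfamily other than most of the lipid sensors. They are the retinoid receptors, the xenobiotic receptors PXR and CAR, the vitamin D receptor, PPAR-delta, the ROR receptors, the steroid hormone and estrogen-related receptors, and the orphan receptors of the NR2, NR4A, NR5, NR6 and NR0 groups. The genes were chosen by name, and each was read from the probe set with the highest mean among those naming that gene alone. Of the 34 genes 33 were measured, out of 19934 genes in all, each by 1 probe set. Nr2e3 was not analysed here. The samples were 8 livers from C57Bl/6 males of 10 to 12 weeks. The mice ate normal chow under a regular light-dark cycle, tissue was collected at zeitgeber time 10, before lights-off, and each sample was read on 1 Affymetrix expression array. In 4 of them, labelled NS-DADm, the corepressors NCOR and SMRT were both mutated in their deacetylase-activating domain (DAD), through which HDAC3 is bound and made active as a histone deacetylase. The other 4 were wild type (WT). The labels do not say which tissues carry the mutations, whether animals were pooled, or that each array came from a separate mouse, so the p-values reflect the scatter among these 8 arrays, part or all of which may be technical. A growth note shared by all 8 samples calls the mice WT, so the genotypes rest on the titles, descriptions and genotype labels.

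Nuclear receptors are transcription factors whose ligand-binding domain recruits corepressors in 1 state and coactivators in another. NCOR and SMRT were found as partners of unliganded thyroid hormone and retinoic acid receptors, and they also bind other receptors of the family. The comparison asked which of the receptors are detected in liver and which differ when neither corepressor can activate HDAC3. Hepatocytes are known for PXR, CAR, RXR-alpha, LRH-1 and the glucocorticoid receptor, while COUP-TFII (Nr2f2) is better known from venous endothelium and stromal cells.

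The values are log2 intensities, and a difference between groups is a log2 fold change of NS-DADm over WT. Array medians lay between 7.39 and 7.50. The labelled tissue was borne out by its markers. All 5 measured hepatocyte markers lay above the background of the arrays, with an array mean of 13.71 to 13.79 in NS-DADm and 13.78 to 13.79 in WT livers. Because no detection calls came with the values, the signal of 1027 olfactory receptor genes, a class that liver is taken not to use, served as background. Its 95th percentile lay between 6.76 and 6.96 over the arrays. Probes differ in affinity, so these levels do not rank one receptor against another, and a receptor under this line may still be transcribed.

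By that measure 25 of the 33 receptors were detected in all 8 livers, against 63.3% of all genes. They included all 6 retinoid receptors, PPAR-delta, PXR, CAR, ROR-alpha, both testicular receptors Nr2c1 and Nr2c2, all 3 measured COUP-TF genes, Esr1, the glucocorticoid and mineralocorticoid receptors, Esrra, Esrrg, Nr4a1, Nr4a2, both NR5 genes and Nr6a1. Another 7 lay under the line in every array of both genotypes, namely Vdr, Rorb, Hnf4g, Esr2, Pgr, Nr4a3 and Nr0b1. Esrrb crossed it in 2 arrays. Nr2f1 sat close to the line, at 6.95 to 7.10 in NS-DADm and 6.92 to 7.04 in WT livers. Nr5a1, the steroidogenic factor of adrenal and gonad, gave 7.77 to 7.94 in NS-DADm and 7.59 to 8.03 in WT livers, above the line although liver is not among its known sites. With the 99th percentile of the olfactory genes as the line 17 receptors lay above it in all arrays. The receptors no longer above it in all arrays were Nr2f1, Nr4a1, Nr4a2, Rarb, Rarg, Rxrg, Esrrg and Nr5a1. With the vomeronasal receptor genes as background 31 did.

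**Figure D1:**
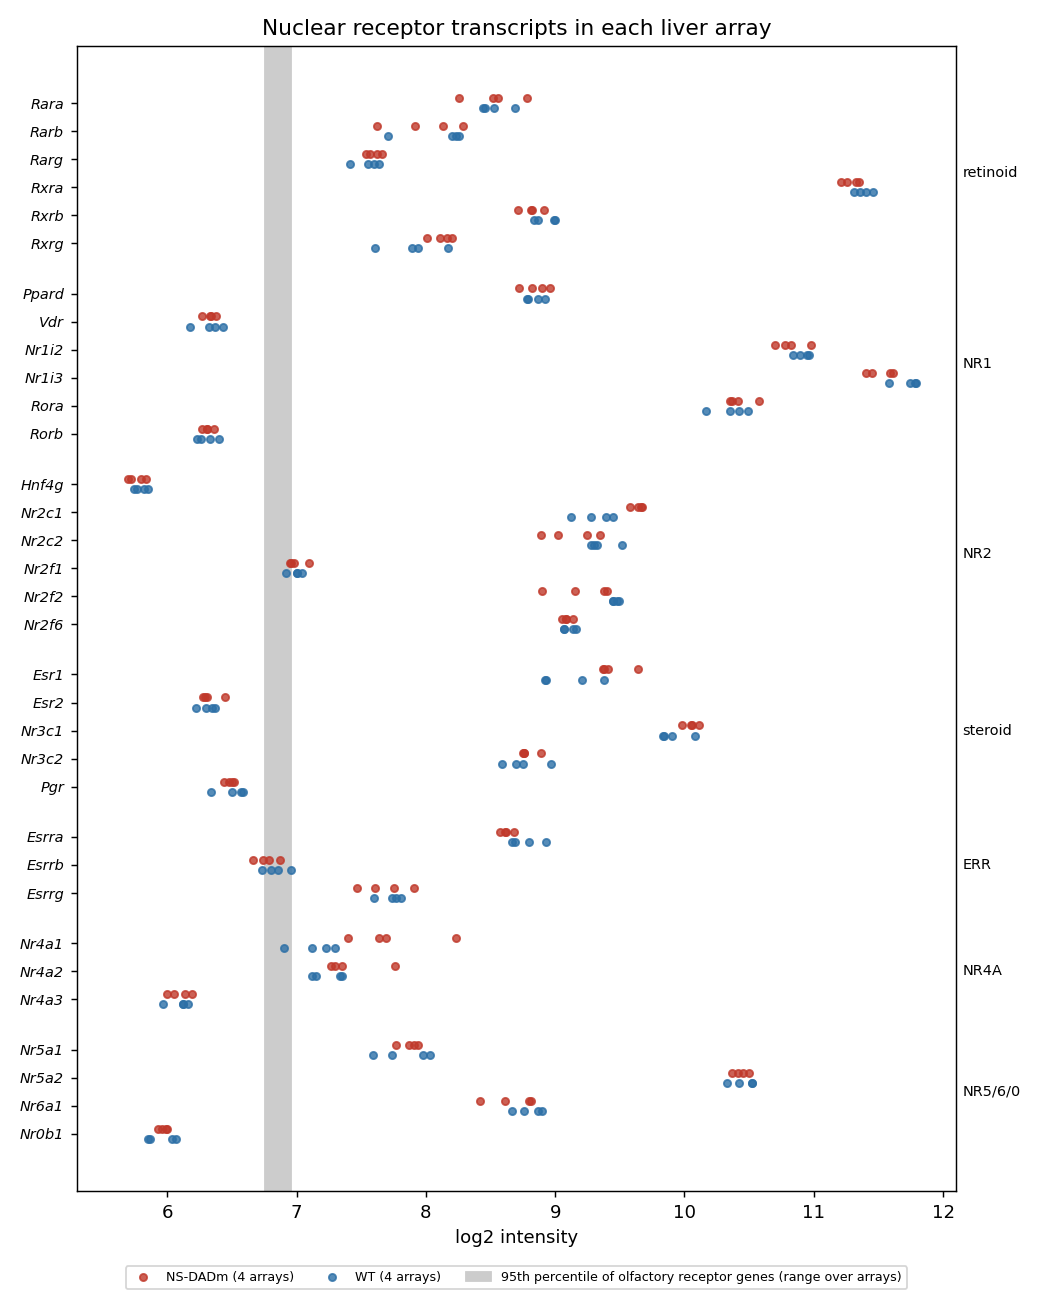
Log2 intensity of 33 nuclear receptor genes in 4 NS-DADm arrays (red, upper row of each gene) and 4 WT arrays (blue, lower row), grouped by receptor class, with a grey band from 6.76 to 6.96 for the 95th percentile of olfactory receptor genes over the arrays. The 7 receptors left of the band are the ones under the background line in every array, and for most genes the red and blue points overlap.

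No receptor passed the test between genotypes. In the fit over all genes (limma, Benjamini-Hochberg adjustment, threshold 0.05) 0 of 33 receptors were called, against 0.271% of all 19934 genes. At an unadjusted p under 0.05 there were 7 of 33, or 21.2%, against 9.33% of all genes. Of those 7, 3 had values above 0 (3.72% of all genes) and 4 had values below 0 (5.60%). The 2 groups of arrays did not overlap for 3 receptors (5.63% of all genes). These were Nr2c1 and Nr4a1 with higher values in NS-DADm livers (1.80% of all genes) and Nr2f2 with lower ones (3.83%). The median log2 fold change over the 33 was 0.001, and over all genes -0.011. It was under 0.1 in size for 20 of the 33. Probe sets under the background line can show only small differences, which holds for 7 of the 33.

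For receptors above the background line the intervals limit how large an unseen difference could be. The 95% confidence interval of the fit, not adjusted for the number of genes, lay within 1.5-fold either way for 32 of the 33 receptors, with Nr4a1 the exception. It lay within 1.25-fold for 23. Both counts include the 7 receptors under the background line in every array, and Esrrb, above it in 2 arrays. Signal near background can show only small differences, so these narrow intervals do not limit a difference in transcript. The SE of a receptor's log2 fold change was 0.067 in the median and ran from 0.051 to 0.155, against a median of 0.070 over all genes. A p that misses the threshold does not show that the genotypes were alike.

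**Figure D2:**
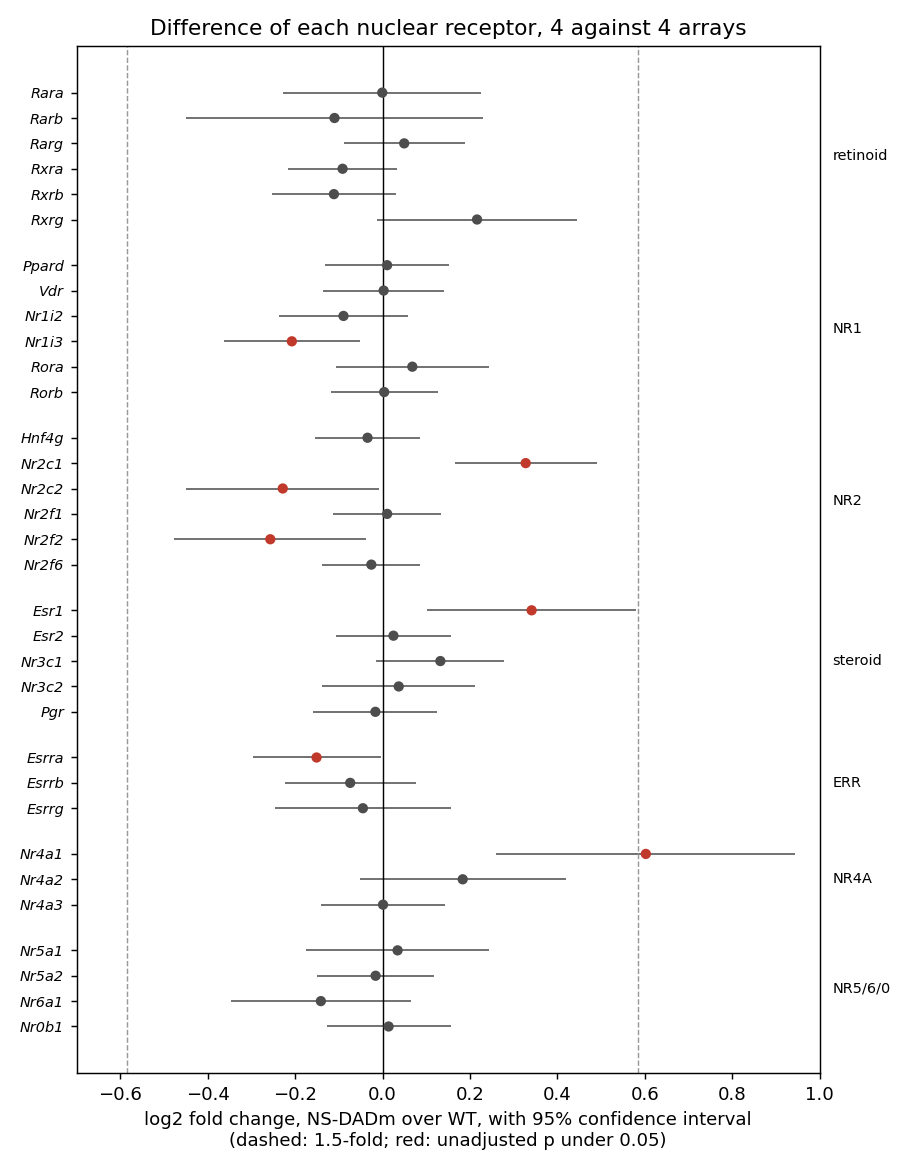
Log2 fold change of each receptor, NS-DADm over WT, with its 95% confidence interval from 4 arrays per group; red points have an unadjusted p under 0.05 and dashed lines mark 1.5-fold. The interval of Nr4a1 alone reaches past 1.5-fold, and none of the 33 passed the adjusted threshold.

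The retinoid receptors bind retinoic acid, and the RXR genes encode the partner with which most NR1 receptors bind DNA. None of the 6 had an unadjusted p under 0.05. Rxra gave 11.35, 11.33, 11.21 and 11.26 in NS-DADm livers, against 11.46, 11.40, 11.36 and 11.31 in WT livers. The groups overlapped, and the log2 fold change was -0.09 (95% confidence interval -0.22 to 0.03). Rxrb was at -0.11, with group means of 8.81 in NS-DADm and 8.93 in WT livers. Rxrg, a form better known from muscle and brain, was at 0.22 (adjusted p = 0.569), with 8.01 to 8.20 in NS-DADm and 7.61 to 8.17 in WT livers, where WT replicate 1 was the lowest. Without that liver the difference was 0.12. Rara had a log2 fold change near 0, with an interval of -0.23 to 0.23. Its 4 NS-DADm livers ran from 8.26 in replicate 1 to 8.78 in replicate 4, a wider range than the 8.44 to 8.69 of the WT livers. Rarb, itself a retinoic acid target, varied widely within both groups. It gave 7.62, 8.13, 7.92 and 8.29 in NS-DADm livers, against 7.71, 8.20, 8.23 and 8.26 in WT livers, and 1 liver of each genotype stood low. Its log2 fold change was -0.11 (95% confidence interval -0.45 to 0.23), or -0.24 without WT replicate 1 and 0.01 without NS-DADm replicate 1. Rarg, the form of skin and other epithelia, was at 0.05.

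Among the NR1 receptors, PXR (Nr1i2) and CAR (Nr1i3) are the sensors that induce drug-metabolising enzymes in hepatocytes. CAR (Entrez Gene 12355) gave 11.40, 11.61, 11.59 and 11.45 in NS-DADm livers, against 11.78, 11.74, 11.79 and 11.58 in WT livers. WT replicate 4 fell inside the NS-DADm range and the other 3 WT livers lay above it. The group means were 11.51 ± 0.10 in NS-DADm and 11.72 ± 0.10 in WT livers (SD, n = 4 each). The log2 fold change was -0.21 (SE 0.071, limma adjusted p = 0.365), a fold of 0.866 with an interval of 0.777 to 0.965. PXR gave 10.70, 10.82, 10.78 and 10.98 in NS-DADm livers, against 10.84, 10.96, 10.89 and 10.95 in WT livers. The groups overlapped, and the log2 fold change was -0.09 (95% confidence interval -0.24 to 0.06). ROR-alpha (Rora), a clock-linked activator, was at 0.07, with 10.35 to 10.58 in NS-DADm and 10.17 to 10.49 in WT livers. PPAR-delta (Ppard), a fatty acid-binding receptor found in most tissues, was at 0.01 (95% confidence interval -0.13 to 0.15). Vdr and Rorb, both under the background line, were at 0.00.

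The NR2 group held 3 of the 7 receptors with an unadjusted p under 0.05. Nr2c1 and Nr2c2 encode TR2 and TR4, related orphan receptors that bind direct repeats of the sequence AGGTCA and can pair with each other. TR2 (Entrez Gene 22025) gave 9.67, 9.58, 9.64 and 9.66 in NS-DADm livers, against 9.12, 9.39, 9.28 and 9.45 in WT livers. All 4 NS-DADm values lay above all 4 WT values and were closer together, with SDs of 0.04 in NS-DADm and 0.15 in WT livers (n = 4 each). The log2 fold change was 0.33 (SE 0.073), 1.25-fold with an interval of 1.12 to 1.40. Its limma adjusted p of 0.129 was the lowest of the 33 receptors, and it ran from 0.0569 to 0.391 over the alternatives, in none of which it was called. TR4 (Entrez Gene 22026) gave 8.89, 9.02, 9.25 and 9.35 in NS-DADm livers, against 9.30, 9.28, 9.32 and 9.52 in WT livers. NS-DADm replicates 1, 2 and 3 lay below all WT livers, replicate 3 by little, and replicate 4 fell inside their range. Its log2 fold change was -0.23 (SE 0.10, limma adjusted p = 0.512), or -0.15 without NS-DADm replicate 1.

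The 2 genes had opposite signs, so the difference between their probe sets was also read within each array, as TR2 minus TR4. It was 0.78, 0.56, 0.39 and 0.31 in NS-DADm livers, against -0.19, 0.11, -0.04 and -0.07 in WT livers (log2). The means were 0.51 ± 0.21 in NS-DADm and -0.05 ± 0.12 in WT livers (SD, n = 4 each), and the groups did not overlap. The pair was picked after its values were seen, so no test is given, and the level of this difference says nothing of which transcript was more abundant.

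COUP-TFII (Nr2f2, Entrez Gene 11819), an orphan receptor of veins and stromal cells, gave 8.90, 9.15, 9.38 and 9.40 in NS-DADm livers, against 9.49, 9.45, 9.45 and 9.48 in WT livers. All NS-DADm values lay below the WT values, which were nearly equal. NS-DADm replicates 3 and 4 missed them by little. The means were 9.21 ± 0.23 in NS-DADm and 9.46 ± 0.02 in WT livers (SD, n = 4 each). The difference of -0.26 (SE 0.10, limma adjusted p = 0.439) was -0.15 without NS-DADm replicate 1. In the same livers the mean of 14 sinusoidal endothelial markers was 8.99, 9.26, 9.34 and 9.64 in NS-DADm, against 9.52, 9.67, 9.56 and 9.62 in WT. NS-DADm replicate 1 was the lowest and replicate 4 the highest of the NS-DADm livers in both measures. The means of hepatocyte, Kupffer cell, stellate cell and lymphocyte markers had the same lowest and highest NS-DADm livers. Those of the cholangiocyte and neutrophil markers did not. The match is therefore not particular to the endothelial markers. Among hepatocyte markers NS-DADm replicate 1 was low in Tat, at 13.39 against 13.66 to 13.74 in the other NS-DADm livers. Of the 7 lymphocyte markers 3 lay under the background line in every array. All 14 endothelial markers had values below 0, with a median log2 fold change of -0.285. Of them 1, Dnase1l3, fell by 0.59 on the log2 scale (limma adjusted p = 0.0233, and 0.110% of all genes fell). All 14 were above the background line in every array. The mean of 10 stellate cell markers was 8.60, 8.70, 8.73 and 8.99 in NS-DADm and 8.76 to 8.92 in WT livers. The part of these cell types in the value of Nr2f2 was not tested, and in whole liver fewer cells of a type and less RNA per cell cannot be told apart. Nr2f1, the sister gene COUP-TFI, was at 0.01, Nr2f6 at -0.03, and Hnf4g, under the background line, at -0.03.

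Of the steroid hormone receptors, the estrogen receptor gene Esr1 (Entrez Gene 13982) had an unadjusted p under 0.05. It gave 9.37, 9.64, 9.38 and 9.41 in NS-DADm livers, against 9.21, 9.38, 8.92 and 8.93 in WT livers. WT replicate 2 reached the level of the NS-DADm livers, and the other 3 WT livers lay below them. The means were 9.45 ± 0.13 in NS-DADm and 9.11 ± 0.23 in WT livers (SD, n = 4 each). The log2 fold change was 0.34 (SE 0.108, limma adjusted p = 0.323), 1.27-fold with an interval of 1.07 to 1.49. The glucocorticoid receptor Nr3c1 gave 10.05, 10.06, 10.11 and 9.98 in NS-DADm livers, against 9.83, 9.90, 9.84 and 10.08 in WT livers. WT replicate 4 lay inside the NS-DADm range and the other 3 below it, and the log2 fold change was 0.13 (95% confidence interval -0.01 to 0.28). The mineralocorticoid receptor Nr3c2 was at 0.04. Esr2 and the progesterone receptor Pgr, both under the background line, were at 0.02 and -0.02.

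The estrogen-related receptors are orphan receptors that drive mitochondrial genes. All 3 had values below 0. Esrra (Entrez Gene 26379) gave 8.57, 8.68, 8.62 and 8.61 in NS-DADm livers, against 8.93, 8.80, 8.69 and 8.67 in WT livers. The groups met at 1 point, NS-DADm replicate 2 lying just above WT replicate 4. The log2 fold change was -0.15 (SE 0.066, limma adjusted p = 0.515), or -0.10 without WT replicate 1. Esrrg, which fasting induces in liver, was at -0.04, with 7.47 to 7.91 in NS-DADm and 7.60 to 7.81 in WT livers, and Esrrb was at -0.07.

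**Figure D3:**
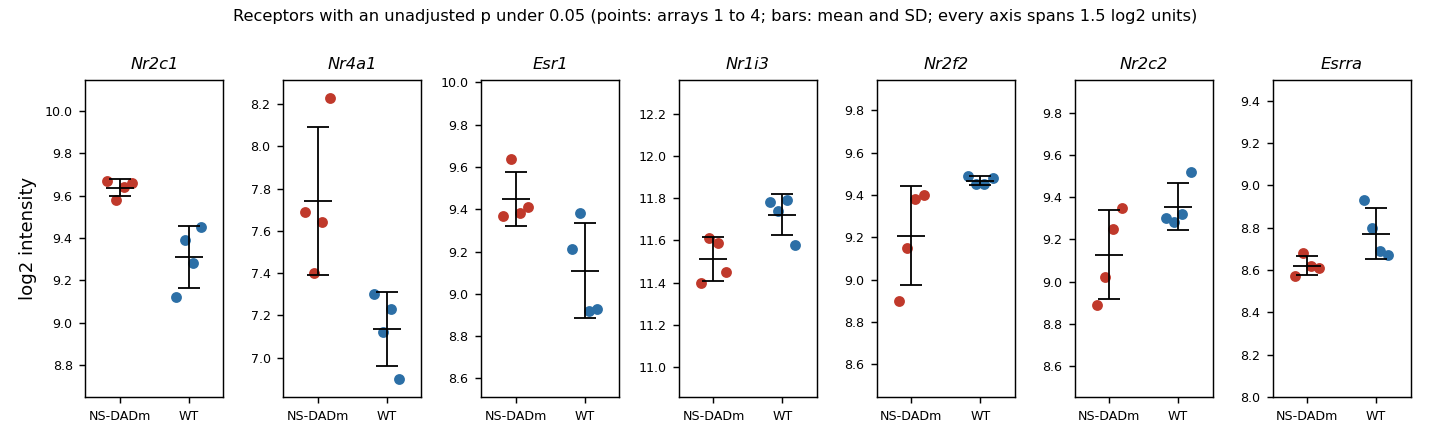
Log2 intensity in NS-DADm (red, left) and WT (blue, right) livers of the 7 receptors with an unadjusted p under 0.05, with points for arrays 1 to 4 and bars for the mean and SD; every axis spans 1.5 log2 units. The groups are apart for Nr2c1, Nr4a1 and Nr2f2, and 1 or more arrays overlap for Esr1, Nr1i3, Nr2c2 and Esrra.

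The NR4A receptors are constitutively active orphan receptors, switched on through their transcription as immediate early genes. RefSeq promoter windows were at hand for 30 of the 33 receptors, and the Nr4a1 window is shown because its gene had the largest log2 fold change of the 33. The 250 bases before the listed start of Nr4a1, at chr15:101266596-101266845 on the plus strand of GRCm38.p6, are given with the sequence TGCGTCA, an AP-1-like element, in capitals.
Nr4a1: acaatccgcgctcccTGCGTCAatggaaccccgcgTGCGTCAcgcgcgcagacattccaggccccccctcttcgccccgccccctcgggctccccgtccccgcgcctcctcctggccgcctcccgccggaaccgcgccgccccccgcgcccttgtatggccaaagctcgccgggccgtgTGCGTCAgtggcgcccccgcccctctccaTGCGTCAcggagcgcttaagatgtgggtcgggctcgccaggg
The element occurs 4 times, beginning 235, 215, 71 and 42 bases before the start. Both strands were searched, and 1.75% of 32851 promoter windows of this length held it at least once, 10 windows at least 2 times, and 1 window, that of Nr4a1, 3 times or more. The windows of Nr4a2 and Nr4a3 held none. Of the 46 windows of the receptors none held the cAMP response element TGACGTCA, which 1.55% of all windows hold, and 6, or 13.0%, held the receptor-binding sequence AGGTCA, against 4607 of all 32851 windows. Matches are descriptions of letters, not of binding.

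Nr4a1 (Nur77, Entrez Gene 15370) gave 7.69, 7.40, 7.64 and 8.23 in NS-DADm livers, against 7.30, 7.12, 7.23 and 6.90 in WT livers. All NS-DADm values lay above all WT values, with NS-DADm replicate 4 the highest and WT replicate 4 the lowest. The WT values were close to the background line, which lay between 6.76 and 6.96 over the arrays. The means were 7.74 ± 0.35 in NS-DADm and 7.14 ± 0.17 in WT livers (SD, n = 4 each). The difference was 0.60 on the log2 scale (SE 0.155), 1.52-fold with an interval of 1.20 to 1.92. The limma adjusted p was 0.203, and 0.111 to 0.483 over the alternatives. Without NS-DADm replicate 4 the log2 fold change was 0.44. Nr4a2 (Nurr1) gave 7.30, 7.35, 7.27 and 7.76 in NS-DADm livers, against 7.34, 7.12, 7.35 and 7.15 in WT livers. NS-DADm replicate 4 stood alone above the rest, and the log2 fold change of 0.18 (adjusted p = 0.668) was 0.07 without it. Nr4a3 (Nor1) stayed under the background line in both genotypes, with a difference of 0.00.

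Other immediate early genes and macrophage markers bear on the same arrays. Over 11 immediate early genes none passed the test. The list had a median log2 fold change of 0.191, and 3 of 11 had an unadjusted p under 0.05, all above 0 (3.72% of all genes). The mean of the 11 was 8.37, 7.84, 7.68 and 7.79 in NS-DADm livers, against 7.80, 7.69, 7.66 and 7.44 in WT livers, so NS-DADm replicate 1 was the highest, not replicate 4. Egr1, a zinc finger factor induced within minutes of a stimulus, is 1 of these 11 and was likewise highest in NS-DADm replicate 1, with 9.71 there, 7.87 to 7.99 in the other NS-DADm livers and 7.19 to 7.77 in WT livers. Its log2 fold change was 0.84 (adjusted p = 0.485), and that of Btg2, an antiproliferative gene, 0.72 (adjusted p = 0.525). Without NS-DADm replicate 1 they were 0.40 for Egr1 and 0.33 for Btg2. The mean of 10 Kupffer cell and macrophage markers, all above the background line, was 8.61, 8.91, 9.26 and 9.66 in NS-DADm livers, against 9.17, 8.86, 8.70 and 9.32 in WT livers. NS-DADm replicate 4 was the highest of all 8, as for Nr4a1 and Nr4a2. The other arrays did not keep one order. WT replicate 4 was next highest in the marker mean but lowest of all 8 for Nr4a1, and NS-DADm replicate 1 was lowest in the marker mean but next highest for Nr4a1. None of the 10 passed the test, and their part in the values of Nr4a1 was not tested.

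**Figure D4:**
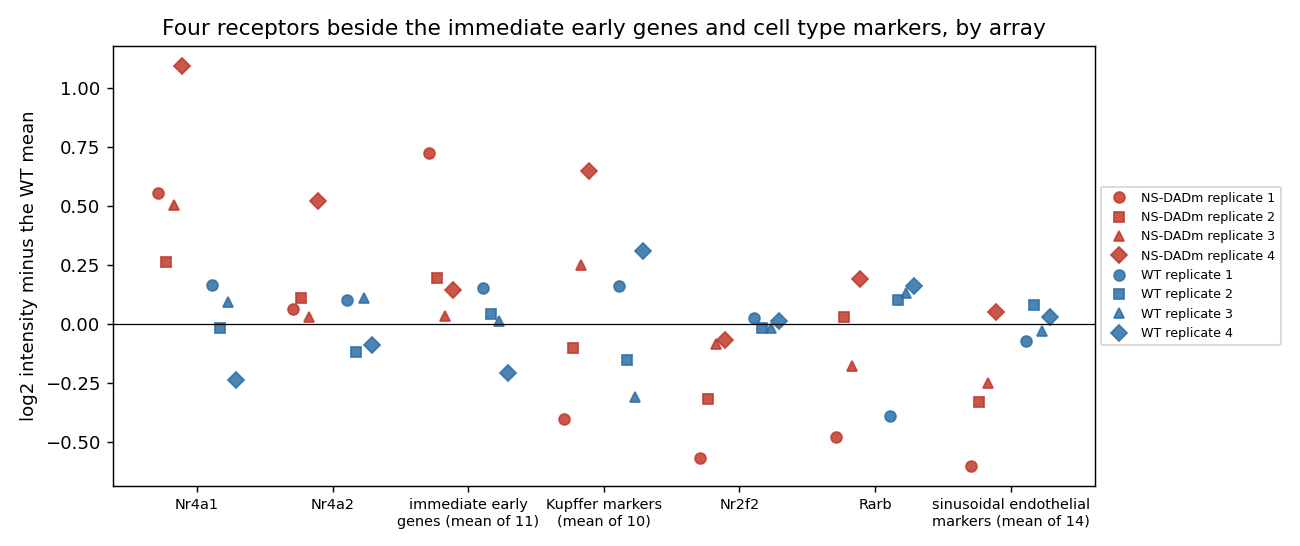
Log2 intensity minus the WT mean in each of 4 NS-DADm (red) and 4 WT (blue) arrays, 1 symbol per replicate number, for Nr4a1, Nr4a2, Nr2f2 and Rarb beside the means of immediate early genes, Kupffer cell markers and sinusoidal endothelial markers. NS-DADm replicate 4 is the highest array for Nr4a1, Nr4a2 and the Kupffer markers. It is also the highest NS-DADm array for Nr2f2, Rarb and the endothelial markers. NS-DADm replicate 1 is the lowest array for Nr2f2, Rarb, the endothelial markers and the Kupffer markers.

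The NR5 receptor LRH-1 (Nr5a2), a hepatic regulator of bile acid and cholesterol genes, differed little. It gave 10.50, 10.37, 10.41 and 10.45 in NS-DADm livers, against 10.33, 10.52, 10.42 and 10.52 in WT livers, a log2 fold change of -0.02 (95% confidence interval -0.15 to 0.12). Its relative Nr5a1 was at 0.03. Nr6a1, the germ cell nuclear factor, was at -0.14 (adjusted p = 0.734), with 8.42 to 8.81 in NS-DADm and 8.67 to 8.90 in WT livers, or -0.06 without NS-DADm replicate 1. Nr0b1 (DAX-1), a receptor without a DNA-binding domain and under the background line here, was at 0.01.

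Genes of the receptor pathways were read from 11 lists of textbook targets, ligand-handling genes and other nuclear receptors, with 99 of 113 genes measured. Of the 99, 2 rose (0.161% of all genes) and none fell. They were the cytochrome P450 gene Cyp2b9 and Pparg. Of the 18 measured genes listed as CAR and PXR targets, 1 rose and 17 did not pass, with a median log2 fold change of 0.098. The 1 that rose was Cyp2b9, and whether CAR or PXR acts on it in these livers was not tested. Cyp2b9 gave 9.51, 8.33, 10.76 and 9.87 in NS-DADm livers, against 6.01, 6.16, 6.91 and 6.30 in WT livers (log2 fold change 3.27, limma adjusted p = 0.0102, or 0.0696 without WT replicate 2 and 0.0863 with trended and robust variances). All NS-DADm livers lay above all WT livers. Each WT value lay under the background line of its array, and each NS-DADm value above it. The fold change is therefore a distance from background, not from a WT level told apart from it. Cyp2b10, the usual CAR marker, named after its values were seen, gave 10.74, 10.47, 11.41 and 11.01 in NS-DADm livers, against 10.01, 9.87, 11.20 and 10.30 in WT livers. Its groups overlapped, and its log2 fold change of 0.56 did not pass (adjusted p = 0.576). Probes for both genes are open to signal from close paralogs.

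Of the glucocorticoid receptor targets 4 had values above 0 and 11 below 0. None of the 15 passed the test, 9 of 15 had an unadjusted p under 0.05 (9.33% of all genes), 2 with values above 0 and 7 below 0, and the median was -0.127. The 2 above 0 were the metallothionein genes Mt1 (1.46, adjusted p = 0.0943) and Mt2 (1.26, adjusted p = 0.102). Mt1 gave 12.61, 12.37, 11.20 and 11.87 in NS-DADm livers, against 10.83, 10.37, 11.02 and 9.98 in WT livers, and passed the test without NS-DADm replicate 3 (1.73, adjusted p = 0.0369). The 7 below 0, named after their values were seen, were Ddit4 (-0.45), Tsc22d3 (-0.45), Zbtb16 (-0.41), Fkbp5 (-0.39), Per1 (-0.38), Pck1 (-0.23) and Tat (-0.20). Zbtb16, a zinc finger repressor, gave 10.58, 10.76, 10.41 and 10.60 in NS-DADm livers, against 11.07, 10.87, 11.17 and 10.87 in WT livers. Tsc22d3, which encodes the anti-inflammatory protein GILZ, gave 9.95, 10.46, 10.39 and 10.41 in NS-DADm livers, against 10.67, 10.94, 10.74 and 10.66 in WT livers. In both genes all NS-DADm livers lay below all WT livers, with adjusted p of 0.125 for Zbtb16 and 0.182 for Tsc22d3 (limma). Over the list the groups did not overlap for 6 of 15 genes (5.63% of all genes). Mt1 and Mt2 were the 2 with higher values (1.80% of all genes). The 4 with lower values were Zbtb16, Tsc22d3, Pck1 and Tat (3.83% of all genes). Fkbp5, a cochaperone of the receptor, overlapped between groups, at 9.39 to 9.86 in NS-DADm and 9.83 to 10.25 in WT livers (adjusted p = 0.277). With WT replicate 4 left out Ddit4 was called, at -0.57 (limma adjusted p = 0.0291).

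In the other lists Pparg was the 1 called gene. Of the 11 other nuclear receptors measured it alone rose, with 10.02, 9.64, 9.83 and 9.84 in NS-DADm livers, against 9.14, 9.07, 9.29 and 9.35 in WT livers (log2 fold change 0.62, limma adjusted p = 0.0177). Leaving out NS-DADm replicate 3 or any of WT replicates 1, 2 and 3 moved its adjusted p above the threshold, to 0.0534 to 0.0867. The median of those 11 was -0.076, with 3 values above 0 and 8 below 0. Ppara and Nr0b2 are named after their values were seen. Ppara gave 11.52 to 11.67 in NS-DADm and 11.74 to 11.92 in WT livers, lower without overlap (3.83% of all genes). Its log2 fold change was -0.22 (limma adjusted p = 0.238). Nr0b2 was at -0.79 with overlapping groups (limma adjusted p = 0.571). Of 7 retinoic acid targets none passed, and the median was -0.034. Cyp26a1, which degrades retinoic acid, gave 7.44, 7.95, 7.64 and 7.69 in NS-DADm livers, against 7.36, 8.13, 8.43 and 9.54 in WT livers. The WT livers spread over more than the difference of -0.69 (adjusted p = 0.601), and without WT replicate 4, the highest of them, the difference was -0.29. Tgm2, a transglutaminase, was at 0.36 (adjusted p = 0.383). Of 12 genes of retinoid storage and metabolism none passed, with the retinol dehydrogenase genes Rdh11 at 0.47 and Rdh16 at 0.29 and a median of 0.009.

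None of 6 LRH-1 targets passed. In 3 of the 6 the unadjusted p was under 0.05, with values below 0 (5.60% of all genes). In the same 3 all NS-DADm livers lay below all WT livers (3.83% of all genes were lower without overlap). These were Abcg5 and, named after their values were seen, its partner Abcg8 (-0.26) and the HDL receptor gene Scarb1 (-0.12). Cyp7a1, the rate-limiting enzyme of bile acid synthesis, was at 0.56 (adjusted p = 0.573), or 0.35 without WT replicate 4, and the sterol transporter gene Abcg5 at -0.26 (adjusted p = 0.173). Abcg5 gave 11.60, 11.75, 11.77 and 11.75 in NS-DADm livers, against 11.92, 12.08, 11.90 and 12.00 in WT livers, with no overlap. None of 8 targets of the estrogen-related receptors passed, with a median of -0.003. The fatty acid oxidation gene Acadm was at 0.23 (adjusted p = 0.281) and the coactivator Ppargc1a at -0.24. Of 4 PPAR-delta targets none passed and 3 had an unadjusted p under 0.05 (9.33% of all genes). Of these 3, 1 lay above 0 (3.72% of all genes) and 2 below 0 (5.60%). The lipid droplet coat gene Plin2 was at 0.34 (limma adjusted p = 0.298). Pdk4, a kinase that restrains pyruvate oxidation, was at -0.26. The groups did not overlap for 2 of the 4 (5.63% of all genes). These were Plin2 with higher values (1.80%) and, named after its values were seen, Angptl4 with lower ones (3.83%). None of 4 ROR-alpha targets passed, and 3 had values above 0 and 1 below 0. The clock-linked genes Clock, at 0.27, and Arntl, at 0.18, were the 2 with an unadjusted p under 0.05 (3.72% of all genes above 0). Arntl was named after its values were seen, and its WT values, 6.90 to 7.10, were close to the background line. Nfil3 was also at 0.27, but its unadjusted p was above 0.05. None of 3 vitamin D receptor targets passed, with the calcium channel genes Trpv5 at -0.12 and Trpv6 at -0.06. Trpv5 and Trpv6 lay under the background line in every array, where only small differences can show.

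**Figure D5:**
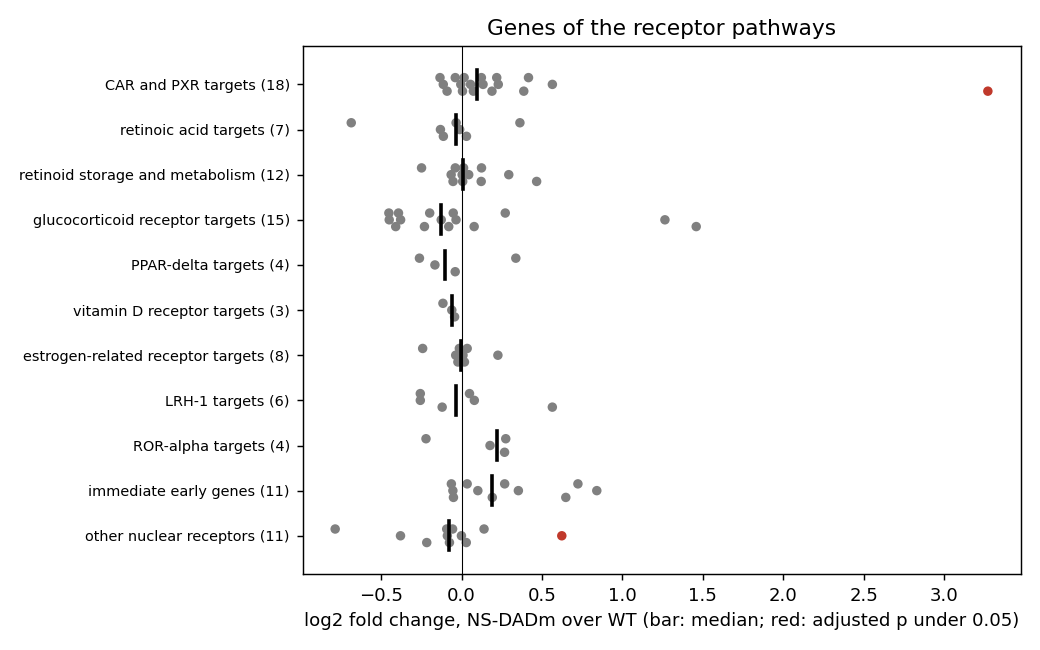
Log2 fold change, NS-DADm over WT, of each measured gene in 11 lists of receptor targets and related genes, with black bars for list medians and red points for adjusted p under 0.05. Cyp2b9 at 3.27 and Pparg at 0.62 are the 2 red points, and Mt1 and Mt2 stand apart from the other glucocorticoid receptor targets.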

How the data were processed

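RNA from 4 NS-DADm and 4 WT livers was hybridised to 1 Affymetrix Mouse Gene 1.0 ST array per sample. The table deposited by the authors holds log2 intensities of 28270 probe sets, a scale read from the values themselves (3.43 to 14.37). RMA and the Partek software are named in the submitters' processing notes, without settings or order. RMA normalizes between arrays and compresses differences at low signal. Probe sets were named from the platform annotation, and 19852 of the 19934 genes were matched by identifier to the RefSeq table of GRCm38.p6 for current symbols. A single gene was named for 21780 probe sets, more than 1 gene for 1617, and none for 4873. No value was missing and no filter was applied. The transcript level of the mutated genes is not reported here. Precision is limited by the 4 arrays per group.

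The genotypes were compared in limma 3.58.1 under R 4.3.3 (lmFit, eBayes, two-sided, Benjamini-Hochberg adjustment over all genes). The steps were tested on simulated data. Alternatives covered probe set choice, filters, normalization, variance model, array weights, the replicate block and each array left out. Neither batches nor detection calls came with the table. The receptors and lists were chosen with earlier results of these data known. The naming rule took all receptors, and of each list the called genes or else the 2 largest changes in size. Figures were made with Python 3.11.15 and matplotlib 3.10.9. Promoter sequences are from RefSeq (GRCm38.p6).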

Additional observations from a re-analysis of the deposited data

Results flagged for a closer look

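In 10 of 124 groups of 4 arrays the highest or lowest array stood apart from the other 3 by more than Dixon's 95% criterion, and chance alone does so in about 1 group in 20. Of the 66 groups of the receptors, 6 did. Rarb was 7.71 in WT replicate 1, against 8.20 to 8.26 in the other WT livers. Nr2c2 was 9.52 in WT replicate 4, against 9.28 to 9.32 in the others. Nr2f1 was 7.10 and Esr1 9.64 in NS-DADm replicate 2, against 6.95 to 6.98 and 9.37 to 9.41 in the other NS-DADm livers. Nr3c2 was 8.89 in NS-DADm replicate 3, against 8.75 to 8.76 in the others. Nr4a2 was 7.76 in NS-DADm replicate 4, against 7.27 to 7.35 in the others. Among the pathway genes NS-DADm replicate 1 stood apart 3 times, with Egr1 at 9.71 against 7.87 to 7.99, Tsc22d3 at 9.95 against 10.39 to 10.46, and Abcg5 at 11.60 against 11.75 to 11.77 in the other NS-DADm livers. Rdh11 was 9.60 in NS-DADm replicate 4, against 10.10 to 10.15 in the others.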

How the results depend on the processing

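No receptor was called under any of the alternatives run, and the lowest adjusted p was 0.0569, for Nr2c1 with array weights. Of 576 recomputed receptor values 539 kept their sign, and the 14 receptors that changed it had differences of at most 0.11 in size. The count of receptors with an unadjusted p under 0.05, 7 of 33, was 4 in the gene-by-gene test without shared variances and 4 to 8 with 1 array left out. The 2 called pathway genes became 1 with trended and robust variances, 0 in the gene-by-gene test, 5 with the replicate number as a block (with Cyp2b10, Fkbp5 and Myc added, at adjusted p of 0.0387, 0.0453 and 0.0278), and 0 to 3 with 1 array left out. The block called no receptor. Same-numbered livers correlated at -0.102 to 0.247 in their deviations from the group means, and 3 of 8 livers correlated best with their own number, so the numbers were not taken to pair the samples. Over all genes 54 were called, 109 with array weights, 105 with the block, 0 in the gene-by-gene test (1709 at an unadjusted p under 0.05), and 13 (without WT replicate 2) to 126 (without NS-DADm replicate 4) with 1 array left out. The count of 25 receptors above the olfactory line was 25 with any array left out.

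With 1 array left out, the log2 fold change ran from -0.09 to 0.09 for Rara, -0.24 to 0.01 for Rarb, -0.03 to 0.05 for Ppard, -0.05 to 0.04 for Vdr, -0.02 to 0.03 for Rorb and -0.02 to 0.03 for Nr2f1. It ran from -0.01 to 0.04 for Esr2, -0.02 to 0.11 for Nr3c2, -0.07 to 0.01 for Pgr, -0.12 to 0.03 for Esrrg, -0.04 to 0.03 for Nr4a3, -0.05 to 0.10 for Nr5a1, -0.05 to 0.01 for Nr5a2 and -0.02 to 0.05 for Nr0b1. For the pathway genes Trpv6 and Ppargc1a it ran from -0.12 to 0.01 and from -0.53 to 0.04. Array weights gave -0.01 for Vdr, -0.01 for Rorb, -0.04 for Nr4a3 and -0.02 for Nr0b1. For Rara quantile normalization gave 0.01 and median subtraction 0.0047. Among values that kept their sign, 1 array moved Tgm2 to 0.23 (without NS-DADm replicate 4), Rdh11 to 0.31 (without WT replicate 1), Cyp2b10 to 0.85 (without WT replicate 3), Trpv5 to -0.06 (without WT replicate 1), Tat to -0.12 (without NS-DADm replicate 1), and Nfil3 to 0.16 or 0.42 (without NS-DADm replicate 1 or 3). The causes were not tested.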

Other observations

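Arrays differed in how often they gave the extreme of their group. NS-DADm replicate 4 was the highest NS-DADm liver for 13 of the 33 receptors, and NS-DADm replicate 1 the lowest for 13. WT replicate 4 was the lowest WT liver for 16 and WT replicate 1 the highest for 12. The 95th percentile of olfactory receptor genes was lowest, at 6.76, in both WT replicate 2 and WT replicate 4.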
